A study of Mus musculus with 8 samples.

Results

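Trimethylation of histone H3 at lysine 27 (H3K27me3) was described along the neighbouring genes Epb41l1 and Dlgap4 on mouse chromosome 2. The members were selected on the gene names and the false discovery rate (FDR) of a table of changed regions, as the regions of the authors' deposited table that name either gene, with any other listed region within 100 kb of them, and there were 6 of 378. Epb41l1 was named by 5 of them and Dlgap4 by 1, and the added distance brought in no further region. The table compares 4 control samples, labelled Control/WT, with 4 double-knockout (DKO) samples that lack Kdm6a and Kdm6b. All 8 samples came from female mice and held epithelial cells of the jejunal crypts, collected 7 days after deletion, and the labels do not say how it was induced or in which cells. The groups were compared to find where H3K27me3 changes when both demethylases are lost.

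The table holds 0 columns of per-sample values, so neither the depth of a library nor the spread between the replicates could be seen, and no fold change below carries a standard error. Whether epithelial marker genes behaved as the tissue label says could not be examined for the same reason. The reference group is not named, so up and down are used here in the table's own sense. Only regions at an FDR no higher than 0.05 are listed, and those were 0.641% of 58963 tested, with 0.438% listed as up. The 6 regions were chosen because they are listed, so their values are descriptions and were not tested again.

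H3K27me3 is laid down by Polycomb repressive complex PRC2 and marks genes that are kept silent, often as broad domains over CpG-rich promoters and the gene bodies behind them. KDM6A (UTX) and KDM6B (JMJD3) remove the methyl groups. Epb41l1 encodes a membrane skeleton protein of the EPB41 family that is best known from neurons and links membrane proteins to spectrin and actin. Dlgap4 encodes SAPAP4, a scaffold protein that joins DLG-type membrane scaffolds to SHANK proteins under the postsynaptic membrane. Both genes lie on the plus strand, and Aar2, which encodes a factor needed to assemble the U5 particle of the spliceosome, lies between them.

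The listed regions did not form 1 unbroken domain (mm10, which shares its primary coordinates with the RefSeq build GRCm38.p6). A run of 4 regions covered the promoter and the first part of Epb41l1, another lay in the later part of that gene, and the last lay inside Dlgap4 after a gap of 111 kb. Together they spanned 258 kb, from 156414501 to 156672500, and covered 124 kb, or 48.2% of that span, in 5 separate stretches. Over Epb41l1 alone the regions spanned 120.0 kb and covered 81.0% of it. They overlay 75.0% of the RefSeq gene body of Epb41l1 (156417595 to 156543214), began 3.09 kb before it and ended 8.71 kb short of its last base. Of the Dlgap4 gene body (156613633 to 156764363) 17.9% was covered.

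**Figure D1:**
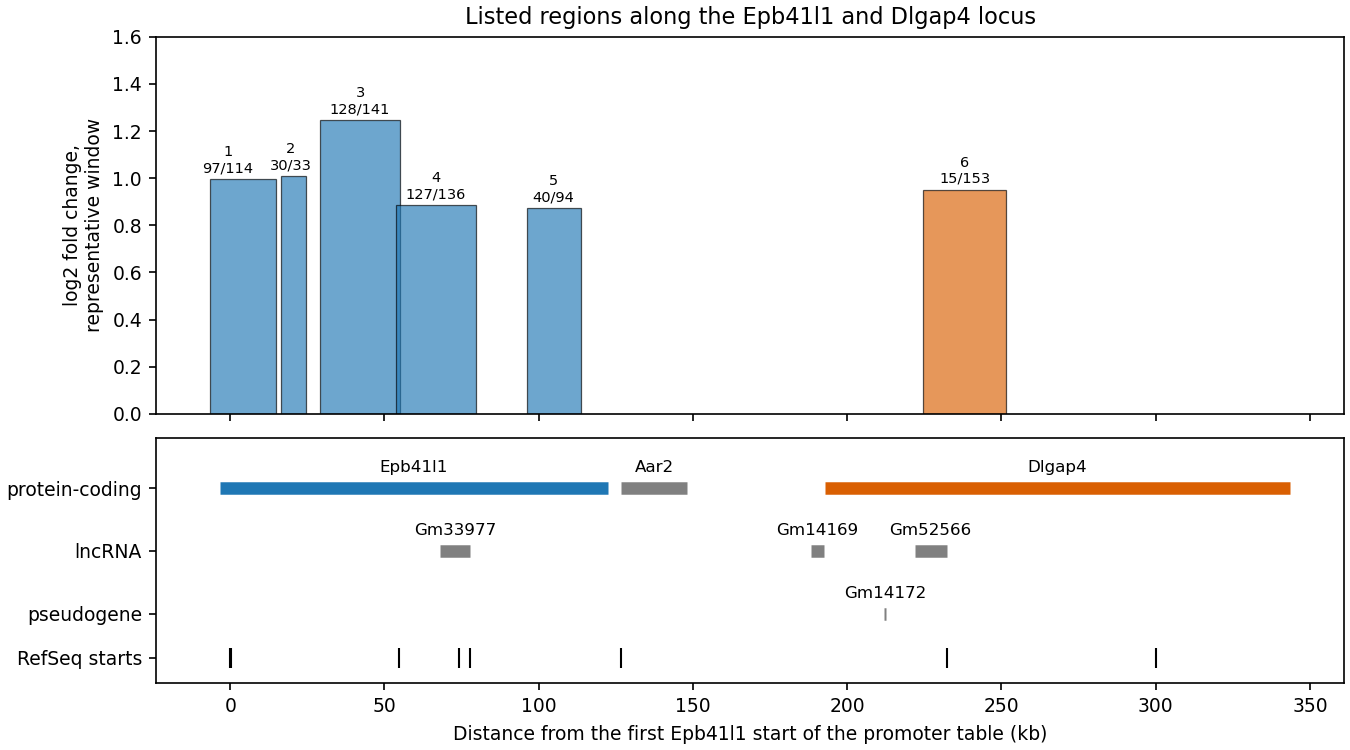
Listed regions and RefSeq genes by distance in kb from the first Epb41l1 start of the promoter table. Bars in the upper panel give the log2 fold change of each region's representative window, with the region's number and its windows counted up over all its windows. The lower panel shows genes by class and transcription starts as ticks. The 5 Epb41l1 regions run from before the gene's start into its later part, Aar2 lies in the 111 kb gap, and region 6 lies inside Dlgap4.

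Promoter sequences of 300 bases, from 250 before to 50 after a transcription start, are shown because H3K27me3 is known to favour CpG-rich starts and the starts of this locus differ in whether a listed region covered them. They are RefSeq sequences of GRCm38.p6, written 5′ to 3′ on the gene's own strand, with each CG dinucleotide in capitals. The first is an upstream Epb41l1 promoter inside region 1 (chr2:156420841-156421140, plus strand). The second is the internal Epb41l1 promoter, which lies in the stretch shared by regions 3 and 4 (chr2:156475284-156475583, plus strand). Aar2 (chr2:156547326-156547625, plus strand) has its promoter in the gap. The promoter of Gm52566, a long noncoding RNA gene of unknown role (chr2:156653095-156653394, minus strand), lies in region 6. The last is the Dlgap4 promoter window of the RefSeq promoter table (chr2:156720715-156721014, plus strand), which no listed region covered. It lies inside the Dlgap4 gene body, which starts at 156613633, and no window was available at that first base.
Epb41l1 upstream: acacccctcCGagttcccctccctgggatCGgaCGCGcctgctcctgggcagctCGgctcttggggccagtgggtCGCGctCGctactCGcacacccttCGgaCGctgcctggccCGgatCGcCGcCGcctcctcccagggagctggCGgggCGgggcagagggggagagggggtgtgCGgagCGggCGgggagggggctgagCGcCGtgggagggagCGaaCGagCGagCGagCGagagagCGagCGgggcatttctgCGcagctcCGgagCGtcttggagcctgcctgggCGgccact
Epb41l1 internal: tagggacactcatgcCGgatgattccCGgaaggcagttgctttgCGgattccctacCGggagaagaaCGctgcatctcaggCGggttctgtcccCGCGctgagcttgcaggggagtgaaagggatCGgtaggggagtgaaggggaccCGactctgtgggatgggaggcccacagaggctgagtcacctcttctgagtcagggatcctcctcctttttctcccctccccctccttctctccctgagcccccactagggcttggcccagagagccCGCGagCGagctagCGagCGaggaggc
Aar2: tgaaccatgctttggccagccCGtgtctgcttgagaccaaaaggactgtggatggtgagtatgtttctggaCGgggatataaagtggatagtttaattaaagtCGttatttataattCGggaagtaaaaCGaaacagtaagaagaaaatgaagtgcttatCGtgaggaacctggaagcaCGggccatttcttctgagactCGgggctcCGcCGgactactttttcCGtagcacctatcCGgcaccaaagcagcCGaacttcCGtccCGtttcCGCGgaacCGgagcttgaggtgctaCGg
Gm52566: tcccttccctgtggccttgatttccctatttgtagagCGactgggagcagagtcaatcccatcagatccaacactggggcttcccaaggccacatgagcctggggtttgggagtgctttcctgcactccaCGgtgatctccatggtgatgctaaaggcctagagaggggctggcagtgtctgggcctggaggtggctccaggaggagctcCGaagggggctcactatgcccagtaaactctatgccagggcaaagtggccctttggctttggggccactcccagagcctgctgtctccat
Dlgap4: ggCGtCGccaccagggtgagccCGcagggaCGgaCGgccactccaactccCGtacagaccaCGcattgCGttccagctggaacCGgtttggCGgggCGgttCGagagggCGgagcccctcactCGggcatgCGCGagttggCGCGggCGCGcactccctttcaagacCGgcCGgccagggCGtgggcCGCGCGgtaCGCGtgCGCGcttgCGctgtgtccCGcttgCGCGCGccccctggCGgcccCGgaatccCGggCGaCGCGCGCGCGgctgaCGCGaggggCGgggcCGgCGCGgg

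The upstream Epb41l1 window held 33 CG dinucleotides, more than 91.4% of the 32851 promoter windows of the RefSeq table, whose median was 7. A second upstream window, which overlaps it and starts at 156420659, held 29. At the internal Epb41l1 start there were 15, more than 65.4% of all windows. Covered starts were therefore not all rich in CG: the Gm52566 window in region 6 held 3, fewer than the table's median. Covered here means inside a region listed as changed, and whether the other starts carry H3K27me3 is not given. The Dlgap4 window inside the gene body, richest of the windows examined with 50 (more than 99.1% of all windows), lay 48.2 kb beyond the end of region 6. Aar2 had 19 and lay 12.8 kb from the nearest listed region. Gm33977, a long noncoding RNA gene whose whole body lies in region 4, has a pair of promoter windows with 11 and 4.

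Short motifs were counted in the same windows, on both strands and with overlapping matches. The motif CGCG occurred 15 times at the Dlgap4 start, 2 times in the upstream Epb41l1 window shown, 2 times in the internal one, 1 time at Aar2 and 0 times at Gm52566, and 38.0% of all promoter windows held it. GCGCGC, each copy of which contains CGCG, occurred 6 times at Dlgap4 and 0 times in the other windows of the locus, against 13.6% of all windows that held it. GAGA, read also as TCTC, was in every window of the locus and in 94.3% of all windows. These are matches of letters, not binding sites.

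Region 1 (156414501 to 156435750) is annotated as overlapping promoter and exon sequence of Epb41l1 and covered both of the gene's upstream RefSeq promoter windows. Up windows numbered 97 of 114, or 85.1%, in the authors' deposited table, and the representative window had a log2 fold change of 0.99 (1.99-fold, FDR 0.0228). Region 2 (156437501 to 156445500), the narrowest at 8.0 kb, is annotated as overlapping exon sequence. Nearly all of its windows were up, 30 of 33, and its log2 fold change was 1.01 (2.01-fold, FDR 0.00201) in the authors' deposited table. The 2 regions were 1.75 kb apart and had nearly the same fold change.

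Region 3 (156450001 to 156476000) carried the strongest change of the locus and followed region 2 after 4.5 kb. Its log2 fold change was 1.25 (2.37-fold, FDR 9.07e-06) in the authors' deposited table, where 128 of its 141 windows, or 90.8%, were up. It ranked 15 by log2 fold change among the 258 up regions of the authors' deposited table, and 11 by FDR among all 378. Region 4 (156474501 to 156500500) had a lower log2 fold change, 0.88 (1.85-fold, FDR 0.0251), in the authors' deposited table, although it had the highest share of windows up at this locus, 127 of 136 or 93.4%. Both were 26.0 kb wide with nearly the same number of windows, while region 4 ranked 215 by FDR in the authors' deposited table.

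Region 5 (156517001 to 156534500) lay 16.5 kb beyond region 4 and closed the series over Epb41l1. Its windows were mixed: 40 of 94, or 42.6%, were counted up in the authors' deposited table, and the log2 fold change was 0.87 (1.83-fold, FDR 0.0404). The table annotates it as overlapping promoter and exon sequence of Epb41l1, while the RefSeq promoter table gives the gene no start there. This was the region of the locus closest to the limit for listing. The highest FDR in the authors' deposited table was 0.0498, and values beyond the limit are not in it.

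Region 6 (156645501 to 156672500), the widest at 27 kb, is annotated as overlapping exon sequence of Dlgap4. It began 31.9 kb into the gene body and ended 48.5 kb before the Dlgap4 start of the RefSeq promoter table, a part of the gene that only transcripts starting further upstream contain. Only 15 of its 153 windows, or 9.80%, were counted up in the authors' deposited table, and the log2 fold change was 0.95 (1.93-fold, FDR 0.0154). The fold change of its representative window was thus within the range of the Epb41l1 regions, from 0.87 to 1.25 in the authors' deposited table. Its share of windows up was below all 5 of them. In regions 3 and 6 the representative window and the one called best had equal log2 fold changes, which held for 230 of all 378 regions. For region 6 the value of 0.95 need not hold for the rest of its 153 windows. Among the 258 up regions of the authors' deposited table, 4 had a lower share of windows up.

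Windows counted up were therefore spread unevenly among the listed regions, and their places within a region are not given. Regions 1 to 4 held 382 up windows of 424, or 90.1%, in the authors' deposited table, and regions 5 and 6 held 55 of 247, or 22.3%. Of 671 windows in all, 437 were up, 0 were down and 234 were in neither count in the authors' deposited table. The rule by which a window is counted is not given, so a window in neither count need not be unchanged. An absence of down windows was common to nearly all up regions, 257 of 258 in the authors' deposited table.

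**Figure D2:**
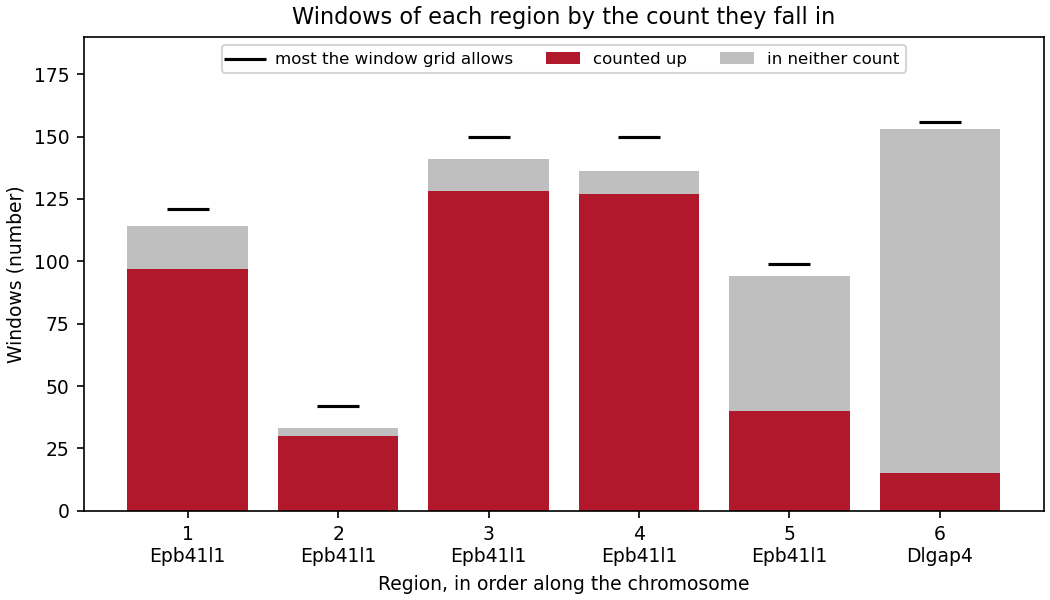
Number of windows in each of the 6 regions, in order along the chromosome. Red bars are windows counted up, grey bars are windows in neither count, and black marks give the most windows that fit in the region. Up windows fill most of regions 1 to 4, 40 of 94 in region 5 and 15 of 153 in region 6.

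How the regions tile the locus follows from the grid of windows, which could be read from the table. Where a region had 1 window, its width was 1 or 2 kb, and the starts and ends of all 378 regions fell on a 250-bp grid. No region held more windows than 1-kb windows every 250 bp and 2-kb windows every 500 bp allow. On that grid the 6 regions pooled held 671 of 718 possible windows, or 93.5%. Taken singly they held from 78.6% to 98.1%, and the median per region over all 378 regions, up and down, was 89.7%. Region 6 was nearly full, with 153 of 156, and region 2 was the sparsest, with 33 of 42. The low share of up windows in region 6 thus did not go with few windows.

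Regions 3 and 4 overlapped by 1500 bp (156474501 to 156476000), which is the overlap of 2-kb windows that start 500 bp apart. Of the 27 overlapping neighbour pairs in the table, 26 shared exactly 1500 bp. Both regions of the pair were 26.0 kb wide, and the widest region of the table was 31.5 kb. The internal Epb41l1 start, at 156475534, fell inside the shared stretch.

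The table numbers the representative window of each region, and on the 2-kb grid these numbers limit where it can lie. For region 3 the representative window ended no later than 156463500, at least 12.03 kb before the internal Epb41l1 start. In region 4 it began no earlier than 156487001, at least 11.5 kb beyond that start. The numbers of these 2 windows differ by 74, so at least 35 kb lay between them, and they stood on either side of the internal promoter, and the 2 values of the authors' deposited table, log2 fold changes of 1.25 for region 3 and 0.88 for region 4, come from distinct stretches of the gene.

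The same numbering shows that the gap between regions 5 and 6 was not empty of tested windows. Between their representative windows lay 206 windows of 2 kb, and at least 125 of these belonged to neither region. They lie in regions that were tested and are not in the authors' deposited table, which was found to hold the full list at FDR 0.05. Aar2, 13.1 kb from the nearest listed region, the noncoding RNA gene Gm14169 and the pseudogene Gm14172 are the RefSeq genes wholly inside this gap. Where the 125 windows lie within it is not given, nor are their fold changes. For the gap of 16.5 kb between regions 4 and 5 the numbering leaves between 0 and 28 such windows, which does not tell whether it was tested.

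The 6 regions were set beside all up regions of the table. The median log2 fold change of the 6 regions was 0.97 in the authors' deposited table, against 0.96 over all 258 up regions. Their median share of windows up was 87.9%, against 72.2%, and their median width was 23.6 kb, against 17.25 kb. Among the 78 up regions of at least 25 kb, the median share of windows up was 58.8% in the authors' deposited table, which lies above the 9.80% of region 6 and below the 90.8% and 93.4% of regions 3 and 4. These shares come from regions chosen with their values known and were not tested.

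**Figure D3:**
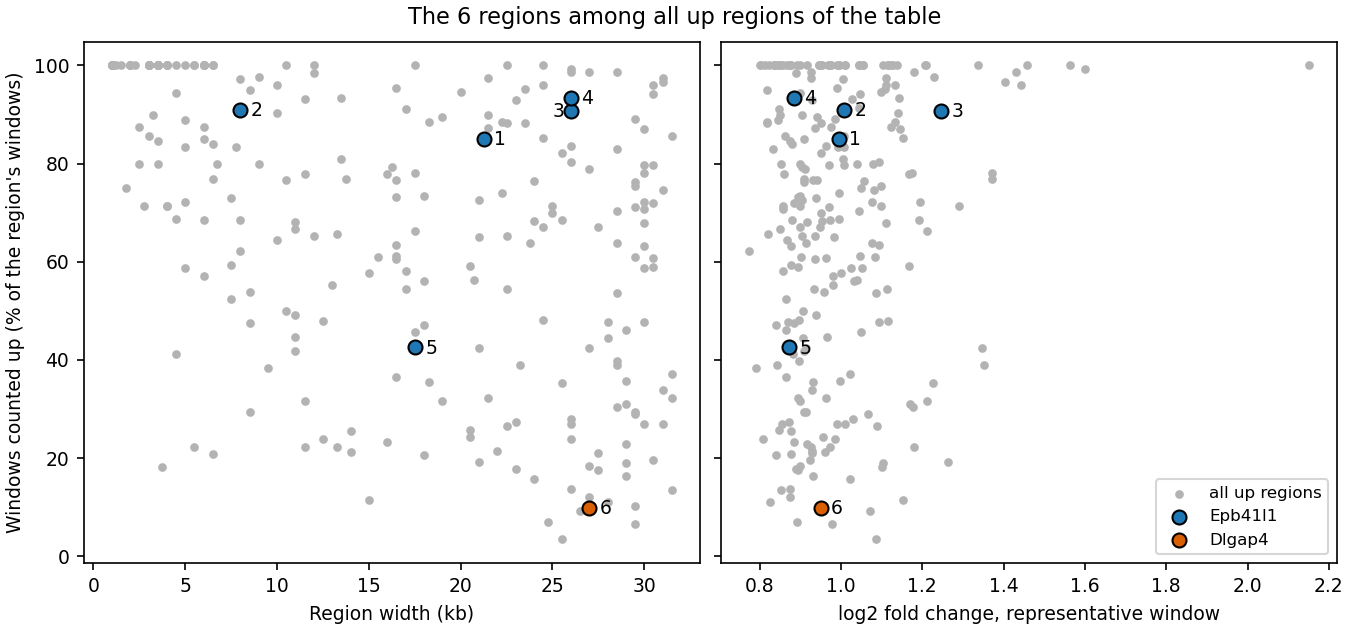
Share of windows counted up, in percent, against region width in kb (left) and against the log2 fold change of the representative window (right) for all 258 up regions in grey. The 6 regions of the locus are numbered, with Epb41l1 in blue and Dlgap4 in orange. Region 6 lies near the bottom at 9.80% and a log2 fold change of 0.95, and region 3 lies to the right at 1.25.

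Chained at a distance of at most 5 kb, the first 4 Epb41l1 regions made a run of 86 kb. There were 30 up runs of more than 1 region, and by number of regions this run stood behind 1 at Sulf2, a sulfatase gene that edits heparan sulfate, and level with 2 others. Sulf2, also on chromosome 2, had 5 regions over 135 kb with 549 of 746 windows up, or 73.6%, in the authors' deposited table. Tle3, which encodes a Groucho-type corepressor, had 4 regions over 116 kb with 556 of 682 up (81.5%), and a run at Gse1, where the table also names Galnt2, had 4 over 83.25 kb with 369 of 418 up (88.3%), in the authors' deposited table. At this distance the share at Epb41l1, 90.1%, was the highest of these 4 runs. Some runs of fewer regions had higher shares. Among them was 1 of 3 regions over 69.5 kb on chromosome 9, with 343 of 367 windows up (93.5%) in the authors' deposited table. With a distance of 20 kb, chosen after the data were seen, region 5 joined the run, which then had 5 regions over 120.0 kb and 422 of 518 windows up, or 81.5%, in the authors' deposited table. Its share was then no longer the highest of the 4, since the Gse1 run stayed at 88.3% and Tle3 stayed at 81.5% with 4 regions each. A further run of 4 regions, over 42.5 kb on chromosome 4, formed at 20 kb. It had 106 of 108 windows up (98.1%) in the authors' deposited table. The nearest listed regions on the chromosome lay 20.2 Mb before region 1 and 1.99 Mb after region 6, so no other listed change adjoined the locus.

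**Figure D4:**
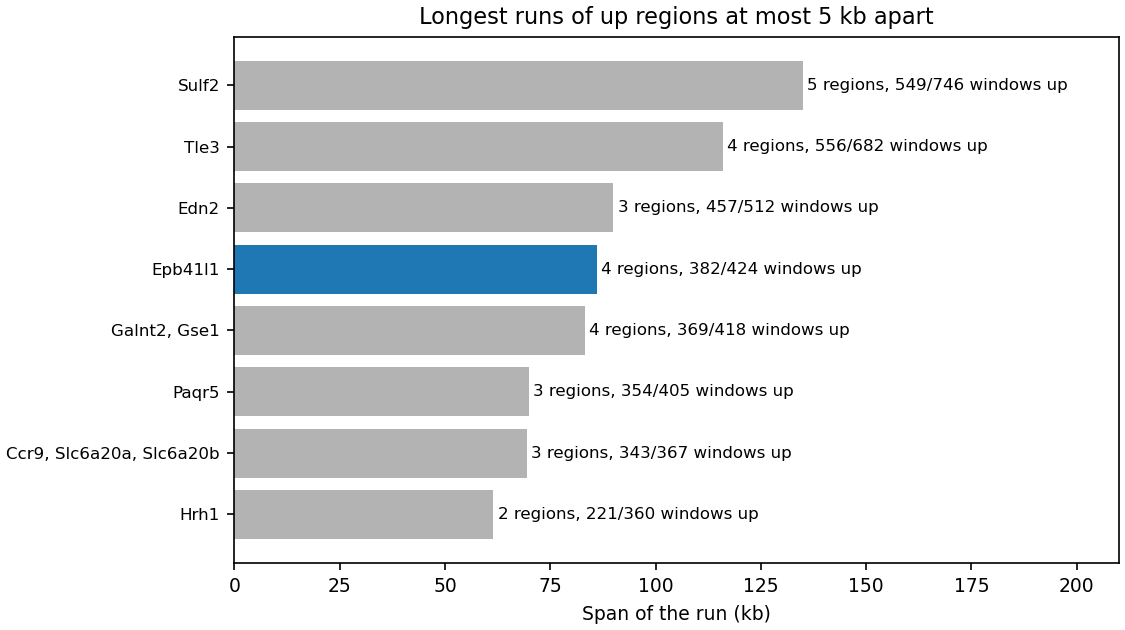
The 8 longest runs of up regions at most 5 kb apart, by span in kb, with the gene names the table gives, the number of regions and the windows counted up over all windows. The Epb41l1 run, in blue, spans 86 kb with 382 of 424 windows up and comes after those at Sulf2, Tle3 and Edn2.

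Relatives of the 2 genes were looked up by name in the table, where 286 of 21900 protein-coding RefSeq genes, or 1.31%, were named as overlapping a listed region or within 5 kb of one. In the EPB41 family that held for Epb41l1 and for none of the other 6 genes, and among the DLGAP genes for Dlgap4 and for none of the other 4. Both hits are the genes by which the locus was chosen, so they are no result about the families. Of 12 scaffold partners (Dlg1 to Dlg5, Mpp1, Shank1 to Shank3 and Homer1 to Homer3) 0 lay at a listed region, and at the share of all genes few or none would be at one. All 24 symbols matched the RefSeq table. A gene outside the list may have been tested and fallen short of the limit, or have had no tested region, and the table does not tell these apart.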

How the data were processed

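H3K27me3 was measured by chromatin immunoprecipitation and sequencing in 4 control and 4 DKO samples, after formaldehyde fixation and micrococcal nuclease digestion, per the labels' protocols. Groups and replicate numbers come from the sample titles. The submitters' processing notes name build mm10 and the tools edgeR (no version), SICER 1.0.3, Picard 1.141, SAMtools 1.11, Bowtie 0.12.7 and FastQC 0.10.1, with no order. For settings and the scaling of libraries, the sources used here give nothing.

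The single file is the authors' comparison of the groups, with column names as in csaw, which joins tested windows into regions. Its p-value and FDR per region and its log2 fold changes of the representative and best windows were used as the authors deposited them, as were its deposited numbers of windows. Annotation fields hold unquoted commas and were read as all cells from the 15th on; entries ending in P, E or I were taken as promoter, exon or intron overlaps. Benjamini-Hochberg adjustment of the p-values gave back the deposited FDR with 58963 tests (largest relative difference 5.77e-15), a step that was tested on simulated data. Depth and precision per sample are unknown. No test was run, since the members were chosen from the table's own results. The members, gene lists and summaries were chosen with earlier results of these data known. The named genes were the 2 members, genes named in the selected regions, RefSeq genes inside the span, family members at listed regions and the 3 other runs with the most regions. Python 3.11.15, pandas 2.3.3 and numpy 2.4.6 were used. Alternatives were FDR 0.01, other distances, overlap entries only, each set of windows, merging at 5 kb, the best window, leaving out each region, and chaining at 20 kb.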

Additional observations from a re-analysis of the deposited data

How the results depend on the processing

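Of 20 values under alternatives, 14 stayed within the limits set for them and 6 moved. Only the median log2 fold change has a sign, and it could not change, since all 6 regions were up. The limit for the share of windows up was a binomial interval over the 671 windows. That interval takes overlapping windows as independent, which they are not, so a share outside it is not shown to differ. At FDR 0.01 in the authors' deposited table, 2 regions remained, regions 2 and 3 of Epb41l1, which cover 34 kb. The table's windows form 2 sets, of 2 kb and 1 kb. The 5 regions represented by a 2-kb window had 61.0% of windows counted up, and region 1, represented by a 1-kb window, had 85.1% and a length of 21.25 kb. The median share over regions was 87.9%, against 65.1% of all windows. Region 6 holds the most windows and few of them were counted up, and the share over the Epb41l1 regions alone was 81.5%. Region 5 also had a low share, 42.6%. The median log2 fold change was 0.95 to 0.99 when each region was left out and 0.97 by the best window, in the authors' deposited table. Distances of 50 and 250 kb selected 6 regions each. No paired analysis was possible because the file holds no values per sample, and for the same reason no replicate could be left out. The unknown depth limits what can be said of windows in neither count.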
